A study of Mus musculus with 20 samples.

Results

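The genes by which the heart takes up and burns fatty acids were followed in the heart apex of mice with and without cardiac AL amyloidosis. The 43 genes were chosen by symbol for their known roles in lipoprotein lipid capture, uptake and activation, the carnitine shuttle, mitochondrial beta-oxidation, electron transfer, triglyceride stores and transcriptional control, out of 25308 genes in the table, and all 43 were found and passed the filter on low counts. RNA from 20 hearts was sequenced. AL mice (n = 9) were λS-DH mice, labelled DH-lambdaS, which carry a human amyloidogenic λ light chain gene inserted at the mouse Ig kappa locus under a mouse heavy chain variable region promoter, so that B lineage cells and plasma cells and not the heart make the protein, and in which amyloid deposits had been induced. In the study, deposits were induced by an intravenous injection of the variable domain of that light chain, as fibrils or as soluble protein. Amyloid scores differed among the AL mice. LS mice (n = 4) had the same genotype but had not been induced and had no deposits. Ctrl mice (n = 7) were DH-LMP2A mice without the human gene. The sources used here do not state which form the AL mice received or whether these Ctrl mice were injected. Injection and deposits thus cannot be told apart. All 3 groups thus carry DH-LMP2A, a genetic setting that yields plasma cells making no Ig heavy chain. The sources used here say that AL and Ctrl mice were matched for age, without the age of each mouse in this experiment.

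The adult heart draws most of its energy from long-chain fatty acids. Lipoprotein lipase frees them from circulating triglyceride, CD36 and transport proteins bring them into the cardiomyocyte, and acyl-CoA synthetases attach coenzyme A. The carnitine shuttle carries the acyl groups into the mitochondrion, where the enzymes of beta-oxidation shorten them step by step and pass electrons to the respiratory chain through the electron transfer flavoprotein. Many of these genes are switched on by the nuclear receptor PPARα with its coactivator PGC-1α, and they are known as a group that often falls in the stressed or failing heart.

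The first sequencing run held AL1 to AL7, LS1 to LS4 and Ctrl1 to Ctrl4, and the second held AL8, AL9 and Ctrl5 to Ctrl7. Total estimated counts were 43993277 to 62668146 in the first run and 7867642 to 11794615 in the second, so that a floor of 3 counts, which covers counting error only, lay between 0.0479 and 0.381 CPM, the count scaled to a common library size with TMM factors. The lowest estimated count of any of the 43 genes in any mouse was 14, for Angptl4. AL9 stood apart, with the highest scaling factor (1.30), the lowest share of mitochondrially encoded counts (18.3%) and a summed fibroblast marker level of 4715 CPM, against 449 to 1696 CPM in the other 8 AL mice. Nothing states which samples were prepared together, and p-values measure the spread between these mice.

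Of the 43 fatty acid genes 11 were lower in AL than in Ctrl hearts and the other 32 did not pass the test. The 11 (25.6%) were lower at a false discovery rate (FDR, Benjamini-Hochberg) under 0.05 in edgeR's quasi-likelihood fit, which had the run as a term, where 15.4% of all 14477 tested genes were lower, and 0 were higher, where 10.7% of all genes were. In either direction the share called was thus 25.6%, near the 26.2% of all genes. An unadjusted p under 0.05 was reached by 14 of the 43 (32.6%, against 38.8% of all genes). The genes lower were Vldlr, Acsl1, Cpt1a, Acacb, Acadm, Hadh, Hadha, Hadhb, Etfdh, Ppara and Ppargc1a. The log2 fold change (log2FC) was below 0 for 38 of the 43 genes, against 48.4% of all genes, and its median was -0.14, against 0.01 over all genes. Only Ppara also had a log2FC of at least 0.58 in size (3.71% of all genes did so in the same direction). Against LS mice, 9 genes were lower (20.9% of the 43, against 13.6% of all genes) and 1, Acsl5, was higher (9.78% of all genes), which makes 23.3% in either direction, against 23.4% of all genes. Of the 9, Ppara and Ppargc1a had a log2FC of at least 0.58 in size (3.03% of all genes). The log2FC was below 0 for 36 of the 43 (48.6% of all genes), with a median of -0.15, 17 had an unadjusted p under 0.05 (36.8% of all genes), and 9 had every AL mouse below every LS mouse (8.25% of all genes). The 9 genes lower against LS were all among the 11, with Cpt1a and Hadh not passing. The comparisons share the AL mice, so they are not independent. All these fold changes are shown in the plot by role.

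**Figure D1:**
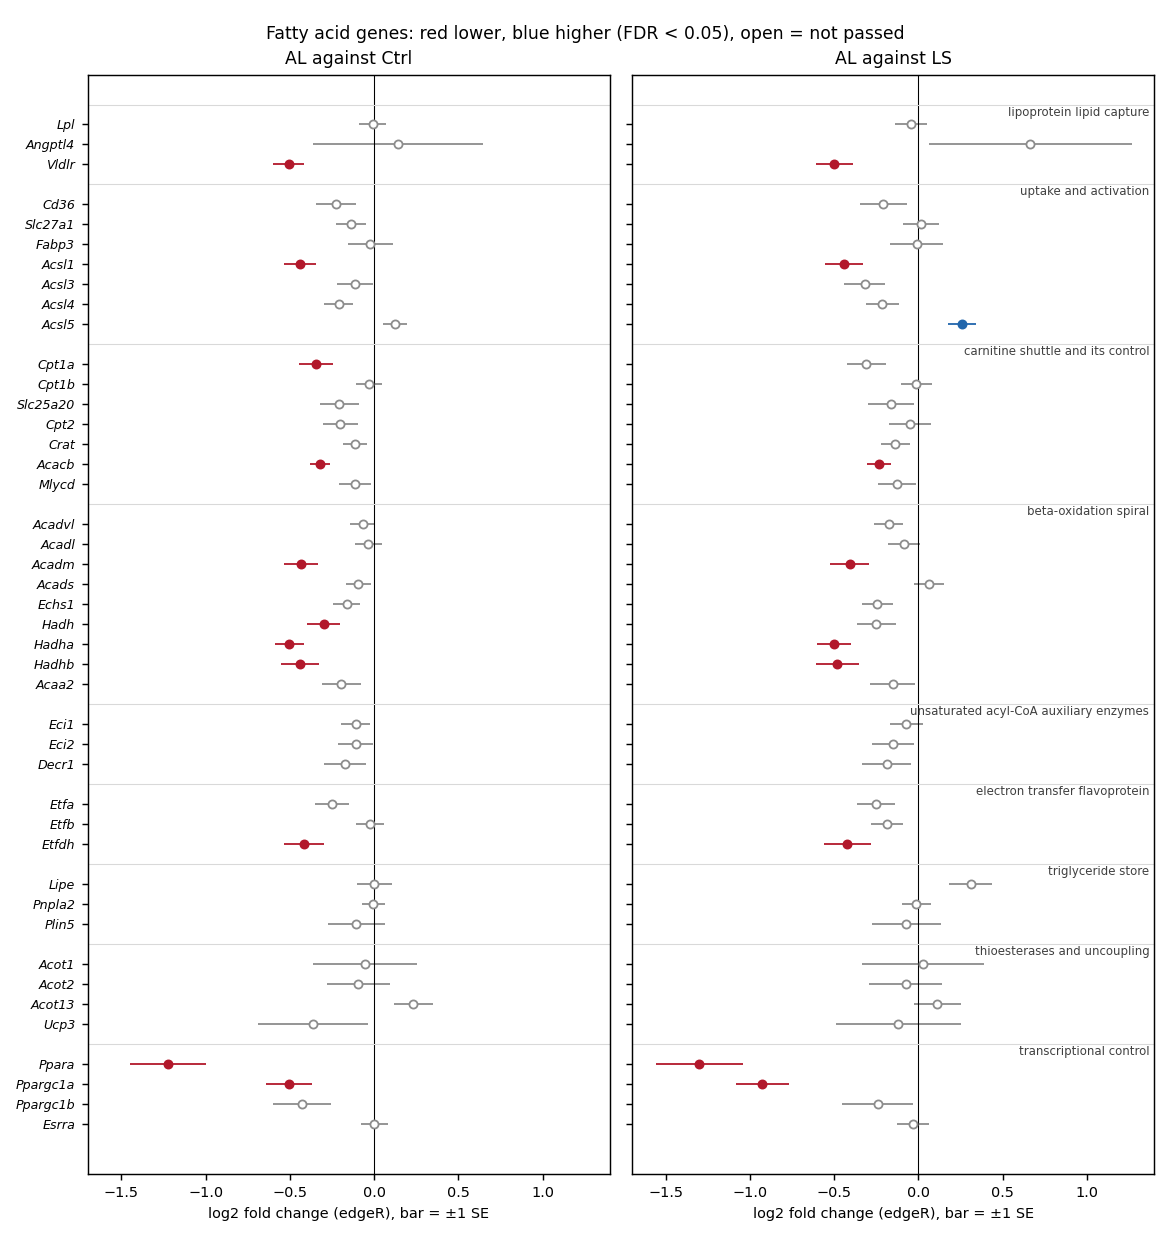
Log2 fold change (x axis, ±1 SE) of each of the 43 genes (y axis, grouped by role) in AL against Ctrl mice (left) and AL against LS mice (right), with filled points at an FDR under 0.05. In each panel most points lie to the left of 0, Ppara lies farthest left, and Acsl5 against LS mice is the 1 gene that passed on the right.

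These calls changed with how the run was handled and when 5 control mice were left out. When the counts were adjusted for the run by ComBat-seq, the count form of the adjustment named in the study's methods, only Ppara remained lower against Ctrl (2.59% of all genes were lower) and only Ppara and Ppargc1a against LS (1.85%). With ComBat-seq the fold changes did not shrink with the calls. The median log2FC over the 43 genes was -0.15, with 40 below 0, against Ctrl, and -0.20, with 38 below 0, against LS. When Ctrl1, Ctrl3, Ctrl4, LS1 and LS3 were left out, the 5 control mice with the highest summed hepatocyte markers (203 to 372 CPM, against 3.94 to 72.5 CPM in the other 15 mice), 3 genes (Ppara, Ppargc1a and Vldlr) remained lower against Ctrl (3.64% of all genes) and Ppargc1a alone against LS (3.16%). Without these 5 mice the median log2FC over the 43 genes was -0.10 against Ctrl, with 30 below 0, nearer to 0 than the -0.14 as reported. Against LS it was -0.19, with 36 below 0. With ComBat-seq and without the 5 mice the share of all genes lower fell too, as the plot of shares by setting shows. Without those 5 mice the Ctrl group held Ctrl2 and Ctrl5 to Ctrl7, with Ctrl2 alone from the first run. The LS group then held LS2 and LS4. The part of the smaller groups in the lost calls was not tested. Within the first run alone, 12 genes were lower (14.6% of all genes) and 1, Acot13, higher (11% of all genes) against Ctrl, and 9 of these 12 were among the 11. Against LS 13 were lower (16.9%) and Acsl5 again higher (15.6%). The second run alone, with 2 AL and 3 Ctrl mice, gave 0 genes at an FDR under 0.05 by edgeR (0.056% of all genes were lower and 0.072% higher) and 3 at an unadjusted p under 0.05 (14.1% of all genes).

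**Figure D2:**
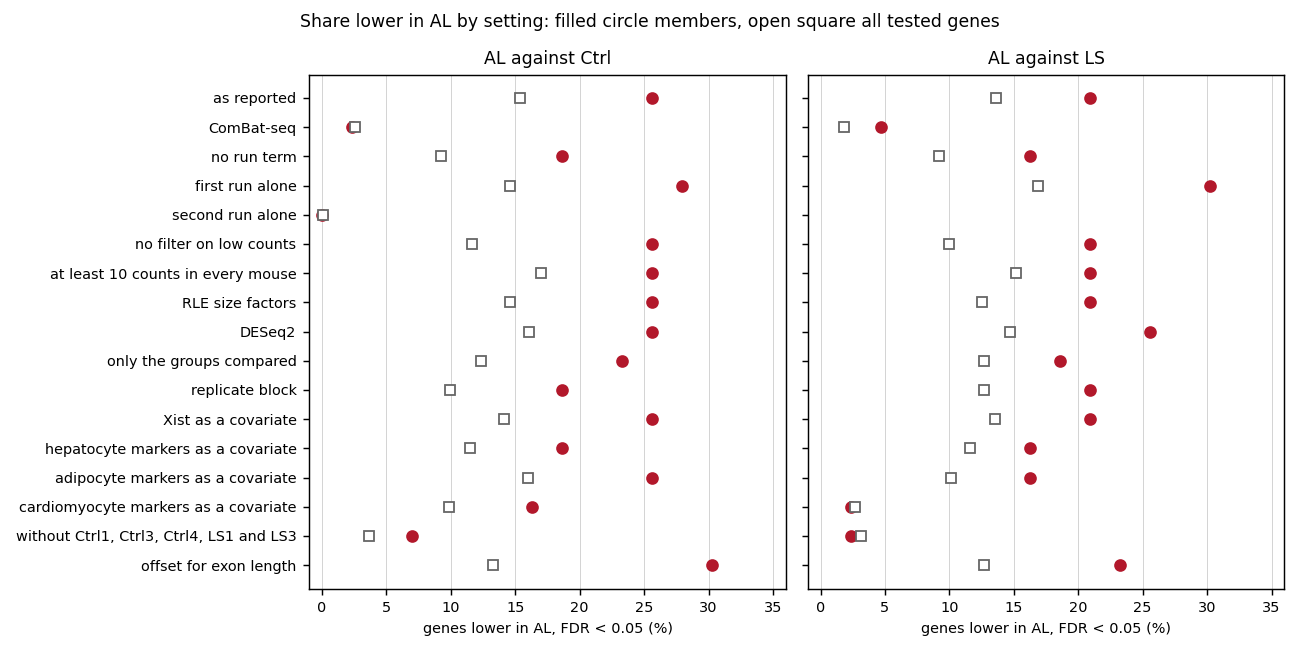
Share of genes lower in AL mice at an FDR under 0.05 (x axis, percent) under each way of processing (y axis), for the 43 fatty acid genes (filled circles) and for all tested genes (open squares). The fatty acid genes lie at 25.6% and all genes at 15.4% as reported for AL against Ctrl, and both fall to under 3% with ComBat-seq.

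Of the genes that capture lipid from lipoproteins, Vldlr was lower in AL mice and Lpl and Angptl4 did not pass. Vldlr (ENSMUSG00000024924, chromosome 19, 27216484 to 27254231; all positions are from GENCODE M21 on GRCm38) encodes the very low density lipoprotein receptor, which binds triglyceride-rich particles. Its level ran from 263 to 488 (median 411) CPM in AL mice and 449 to 587 (median 562) CPM in Ctrl mice, and was 545, 603, 584 and 569.8 CPM in LS1 to LS4. Every AL mouse lay below every LS mouse, and in the first run below every Ctrl mouse too. The log2FC was -0.51 (SE 0.0923, FDR = 0.000889) against Ctrl and -0.50 (SE 0.108, FDR = 0.00342) against LS. Lpl, lipoprotein lipase itself, had 3839.8 to 7163 (median 6494) CPM in AL, 6100.2, 7145, 7197 and 6439.8 CPM in LS1 to LS4 and 4448 to 6986 (median 5885) CPM in Ctrl mice. These ranges overlapped, and the log2FC was -0.01 (SE 0.0803, FDR = 0.96) against Ctrl. Angptl4, which encodes an inhibitor of that lipase, varied most of the 43 genes among first-run AL mice, from 2.70 to 44.4 CPM, with a log2FC of 0.14 (SE 0.505, FDR = 0.868) against Ctrl.

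Among 7 genes of uptake and activation, Acsl1 was lower in AL mice. Acsl1 (ENSMUSG00000018796, chromosome 8, 46471037 to 46536051) encodes the main long-chain acyl-CoA synthetase of the heart. It measured 490.1 to 803 (median 669.7) CPM in AL, 776, 944, 922 and 943 CPM in LS1 to LS4 and 839 to 960.3 (median 892) CPM in Ctrl mice. Every AL mouse lay below every Ctrl mouse, as was the case for Hadha and Ppara too (1.51% of all genes), while LS1 fell within the AL range. The log2FC was -0.44 (SE 0.0956, FDR = 0.00292) against Ctrl and -0.44 (SE 0.111, FDR = 0.00865) against LS. The other synthetases did not pass against Ctrl, with a log2FC of -0.11 for Acsl3, -0.21 for Acsl4 and 0.13 for Acsl5. Acsl5 was the 1 gene higher against LS, with 16.6 to 28.8 (median 25.03) CPM in AL and 23.0, 19.8, 20.4 and 22.1 CPM in LS1 to LS4. Its groups overlapped, its log2FC of 0.26 (SE 0.0829, FDR = 0.0307) was small, and leaving out any of AL1, AL4, AL6, LS2, LS3 or LS4 ended the call (highest FDR 0.12).

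The membrane fatty acid transporter gene Cd36 had 809.6 to 2573 (median 1787) CPM in AL, 2189, 2169, 2117 and 2560.4 CPM in LS1 to LS4 and 1277 to 2326 (median 1936) CPM in Ctrl mice. The lowest values in AL and in Ctrl mice were those of the second run, and the groups overlapped. Its log2FC was -0.22 (SE 0.119, FDR = 0.171) against Ctrl and -0.21 (SE 0.137, FDR = 0.284) against LS, neither of which passed. Slc27a1, a fatty acid transport protein gene, and Fabp3, the fatty acid binding protein of heart and muscle cytosol, had log2FC of -0.14 and -0.02 against Ctrl and did not pass either.

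In the carnitine shuttle 2 of 7 genes, Cpt1a and Acacb, were lower against Ctrl and 1, Acacb, against LS. Carnitine palmitoyltransferase 1 makes the acylcarnitine that enters the mitochondrion, and its Cpt1b isoform is the one of heart and muscle, whereas Cpt1a is the liver isoform that the heart also makes at a low level. Per kilobase of exon, Ctrl mice had 168 CPM of Cpt1b and 7.64 CPM of Cpt1a. Cpt1b measured 433 to 652 (median 519) CPM in AL, 496, 539, 549 and 513 CPM in LS1 to LS4 and 467 to 689.6 (median 569.8) CPM in Ctrl mice. The groups overlapped, with a log2FC of -0.03 (SE 0.077, FDR = 0.804) against Ctrl and -0.01 (SE 0.0908, FDR = 0.936) against LS. Cpt1a (ENSMUSG00000024900, chromosome 19, 3322334 to 3385733) measured 29.8 to 51.7 (median 45.4) CPM in AL, 50.6, 52.5, 52.7 and 60.1 CPM in LS1 to LS4 and 45.8 to 73.2 (median 54.8) CPM in Ctrl mice. AL mice lay below the Ctrl median without exception, with 1 low Ctrl mouse (Ctrl4, 45.8 CPM) inside their range. Its log2FC was -0.35 (SE 0.0983, FDR = 0.0151) against Ctrl and -0.31 (SE 0.115, FDR = 0.0569) against LS, the second of which did not pass. The call against Ctrl passed in 9 of 16 other settings. It was lost with hepatocyte markers as a covariate and without the control mice rich in them.

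Acacb (ENSMUSG00000042010, chromosome 5, 114146535 to 114250761), the acetyl-CoA carboxylase that makes malonyl-CoA, the inhibitor of carnitine palmitoyltransferase 1, was lower in both comparisons. It had 189.8 to 326 (median 238) CPM in AL, 278, 270.3, 276 and 259.9 CPM in LS1 to LS4 and 266 to 384 (median 321) CPM in Ctrl mice. The values depended on the run: AL8 and AL9 had 326 and 313 CPM against 357 to 384 CPM in the Ctrl mice of that run, and in the first run every AL mouse was below every LS and Ctrl mouse. The log2FC was -0.32 (SE 0.0611, FDR = 0.00116) against Ctrl and -0.24 (SE 0.0726, FDR = 0.0252) against LS, and the second call ended without LS1, LS2 or LS3 (highest FDR 0.066). The rest of the shuttle did not pass: Slc25a20, the carnitine-acylcarnitine carrier, Cpt2, the inner membrane transferase, Crat, carnitine acetyltransferase, and Mlycd, which removes malonyl-CoA, had log2FC between -0.21 and -0.11 against Ctrl.

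In the beta-oxidation spiral, 4 of 9 genes were lower against Ctrl (Acadm, Hadh, Hadha and Hadhb) and 3 against LS (the same without Hadh), and all 9 had a log2FC below 0 against Ctrl. Hadha and Hadhb encode the α and β subunits of the mitochondrial trifunctional protein, which carries out the last 3 steps of the spiral on long chains. They lie head to head on chromosome 5, with RefSeq start sites 273 bases apart. The RefSeq windows from 250 bases before to 50 bases after each start (GRCm38.p6) share 228 bases read on opposite strands, shown here in capitals because both genes moved.
Hadha, chr5:30154931-30155230, minus strand: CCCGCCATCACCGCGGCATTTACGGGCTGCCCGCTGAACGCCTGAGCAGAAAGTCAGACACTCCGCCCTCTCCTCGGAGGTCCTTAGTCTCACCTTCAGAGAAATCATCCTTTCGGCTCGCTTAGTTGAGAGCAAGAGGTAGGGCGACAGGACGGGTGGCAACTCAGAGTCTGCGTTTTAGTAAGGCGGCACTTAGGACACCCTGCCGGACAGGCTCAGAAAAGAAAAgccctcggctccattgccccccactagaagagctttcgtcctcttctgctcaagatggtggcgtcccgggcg
Hadhb, chr5:30155003-30155302, plus strand: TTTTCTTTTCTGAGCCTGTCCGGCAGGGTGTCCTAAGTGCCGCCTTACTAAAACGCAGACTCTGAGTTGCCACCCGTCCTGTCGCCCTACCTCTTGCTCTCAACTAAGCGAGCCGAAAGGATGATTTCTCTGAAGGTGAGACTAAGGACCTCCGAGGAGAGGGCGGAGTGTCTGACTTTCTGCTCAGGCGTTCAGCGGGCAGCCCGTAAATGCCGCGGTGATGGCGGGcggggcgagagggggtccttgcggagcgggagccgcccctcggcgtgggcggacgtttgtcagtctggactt

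Hadha (ENSMUSG00000025745, chromosome 5, 30118304 to 30155162) measured 686 to 1219 (median 1051) CPM in AL, 1476, 1364, 1401 and 1647 CPM in LS1 to LS4 and 1237 to 1618 (median 1356) CPM in Ctrl mice. All 9 AL mice lay below all 11 control mice. The log2FC of Hadha was -0.50 (SE 0.0872, FDR = 0.000625) against Ctrl, the lowest FDR of the 43 genes in that comparison, and -0.50 (SE 0.102, FDR = 0.00221) against LS. Hadhb (ENSMUSG00000059447, chromosome 5, 30155248 to 30184593) measured 693 to 2149 (median 1807) CPM in AL, 2564, 2488, 2406 and 2898 CPM in LS1 to LS4 and 1464 to 2692 (median 2271) CPM in Ctrl mice. AL mice lay below all LS mice, but 3 Ctrl mice, those sequenced in the second run (1464 to 1841 CPM), fell among them. Within the second run AL8 had 1388 and AL9 693 CPM, both below these Ctrl mice. The log2FC of Hadhb was -0.44 (SE 0.112, FDR = 0.00771) against Ctrl and -0.48 (SE 0.129, FDR = 0.0123) against LS, and without LS4 the second call was lost (FDR 0.052).

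Of the 4 acyl-CoA dehydrogenases of the spiral, which open the spiral for chains of different lengths, the medium-chain gene alone passed. Acadm (ENSMUSG00000062908, chromosome 3, 153922357 to 153944632) measured 608 to 1118 (median 945) CPM in AL, 1292, 1204, 1189 and 1456 CPM in LS1 to LS4 and 1109 to 1376 (median 1296) CPM in Ctrl mice. AL mice lay below every LS mouse, while AL7 and AL8, at 1113 and 1118 CPM, were just above Ctrl2 at 1109 CPM, which was sequenced with AL7. Its log2FC was -0.44 (SE 0.101, FDR = 0.00445) against Ctrl and -0.41 (SE 0.118, FDR = 0.0179) against LS, and without LS4 the second call was lost (FDR 0.076). The very long-chain (Acadvl), long-chain (Acadl) and short-chain (Acads) genes had log2FC of -0.07, -0.03 and -0.09 against Ctrl, with SE of 0.0735, 0.0804 and 0.0742. The difference between Acadm and its neighbours was itself not tested.

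Hadh (ENSMUSG00000027984, chromosome 3, 131233419 to 131272101), the hydroxyacyl-CoA dehydrogenase for shorter chains, measured 276 to 535 (median 417) CPM in AL, 494, 457, 469 and 575 CPM in LS1 to LS4 and 488 to 543 (median 513) CPM in Ctrl mice. All AL mice but AL8 lay below every Ctrl mouse. The log2FC was -0.30 (SE 0.0985, FDR = 0.0316) against Ctrl, a call that ended without AL5, AL9, Ctrl1, Ctrl3 or Ctrl4 (highest FDR 0.059), and -0.25 (SE 0.116, FDR = 0.122) against LS. Echs1, the enoyl-CoA hydratase, and Acaa2, the thiolase of the last step, had log2FC of -0.16 and -0.19 against Ctrl and did not pass. The auxiliary enzymes for unsaturated chains, Eci1, Eci2 and Decr1, had log2FC from -0.17 to -0.11 against Ctrl and from -0.19 to -0.07 against LS, and 0 of 3 passed.

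A single AGGTCA half-site, the core of the elements that nuclear receptors such as PPARα and ERRα bind, was looked for on both strands of the same RefSeq windows. Windows were found for 35 of the 43 genes (41 windows), and 9 of 41 (21.95%) held it, against 16.3% of all 32851 windows. Among the 11 genes lower against Ctrl, all with a window, 3 held it: Acadm, Acacb and Cpt1a. Their windows are shown with the half-site in capitals, written TGACCT where it lies on the opposite strand.
Acadm, chr3:153944594-153944893, minus strand: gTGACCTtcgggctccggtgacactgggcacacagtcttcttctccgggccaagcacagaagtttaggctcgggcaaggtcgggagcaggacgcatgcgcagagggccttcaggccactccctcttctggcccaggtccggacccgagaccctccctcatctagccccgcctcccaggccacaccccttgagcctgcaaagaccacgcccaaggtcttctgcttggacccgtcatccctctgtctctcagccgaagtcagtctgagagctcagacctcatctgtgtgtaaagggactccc
Acacb, chr5:114165268-114165567, plus strand: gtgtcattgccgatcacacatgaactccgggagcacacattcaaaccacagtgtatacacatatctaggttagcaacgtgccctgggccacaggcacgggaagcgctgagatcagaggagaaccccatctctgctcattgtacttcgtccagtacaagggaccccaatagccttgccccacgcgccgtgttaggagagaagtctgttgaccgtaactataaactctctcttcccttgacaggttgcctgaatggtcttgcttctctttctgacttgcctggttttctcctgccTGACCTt
Cpt1a, chr19:3323051-3323350, plus strand: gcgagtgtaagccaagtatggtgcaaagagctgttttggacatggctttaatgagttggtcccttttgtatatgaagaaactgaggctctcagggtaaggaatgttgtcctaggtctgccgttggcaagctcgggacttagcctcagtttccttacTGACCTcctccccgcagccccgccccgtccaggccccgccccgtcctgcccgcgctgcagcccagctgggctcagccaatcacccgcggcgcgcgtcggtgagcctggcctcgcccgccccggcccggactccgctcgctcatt

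Counted from the start site, the half-site began at base -249 in Acadm, -94 in Cpt1a and 44 in Acacb. No window of the 43 genes held DR1, a pair of half-sites 1 base apart (AGGTCANAGGTCA, 0.0396% of all windows), or the ERR element TCAAGGTCA (0.423%), and the E-box CACGTG was found in those of Lipe and Slc27a1 (7.15% of all windows). A DR1 or ERR element match also holds the half-site. A match is a run of letters in this window and no measure of binding.

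The electron transfer flavoprotein, which takes electrons from the acyl-CoA dehydrogenases, is encoded by Etfa and Etfb, and Etfdh encodes the oxidoreductase that passes them to ubiquinone. Etfdh (ENSMUSG00000027809, chromosome 3, 79603788 to 79629500) was lower in both comparisons. It measured 278 to 691 (median 558) CPM in AL, 713, 719, 735 and 868 CPM in LS1 to LS4 and 553 to 854 (median 667) CPM in Ctrl mice. The AL mice lay below all LS mice and overlapped with Ctrl mice. The log2FC was -0.42 (SE 0.119, FDR = 0.0154) against Ctrl and -0.42 (SE 0.139, FDR = 0.0341) against LS, and the second call was lost without any 1 of AL1, AL3, AL4, AL5 or the 4 LS mice (highest FDR 0.12). Etfa, at -0.25 (SE 0.0993, FDR = 0.0693) against Ctrl, and Etfb, at -0.02 (SE 0.0812, FDR = 0.855), did not pass.

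None of the 3 genes of the triglyceride store passed. Pnpla2, the first lipase of the droplet, and Lipe, hormone-sensitive lipase, had a log2FC of 0.00 (SE 0.0706) and 0.00 (SE 0.103) against Ctrl. Plin5, the droplet protein of oxidative tissues, had -0.11 (SE 0.17) and ranged from 61.6 to 161 CPM among AL mice. The thioesterase genes Acot1, Acot2 and Acot13 and the uncoupling protein gene Ucp3 also did not pass. Acot1 and Acot2 are paralogs on chromosome 12, of whose longest transcripts 28.8% and 29.8% of 31-base words were shared, so the split of those reads is uncertain. Acot13 was the only one of the 4 with a positive log2FC, 0.23 (SE 0.118, FDR = 0.153) against Ctrl. Ucp3, a known PPARα target, had 9.90 to 90.1 (median 56.3) CPM in AL, 59.2, 65.2, 54.7 and 72.3 CPM in LS1 to LS4 and 37.0 to 74.9 (median 66.6) CPM in Ctrl mice. AL5 and AL9, at 13.0 and 9.90 CPM, lay below all other mice, while AL2 at 90.1 CPM was the highest of all. The log2FC of Ucp3 was -0.36 (SE 0.327, FDR = 0.438) against Ctrl and -0.12 (SE 0.372, FDR = 0.848) against LS.

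Of the 4 transcriptional regulators, Ppara and Ppargc1a were lower in both comparisons, and Ppara had the largest log2FC of the 43 genes in each. Ppara (ENSMUSG00000022383, chromosome 15, 85734983 to 85802819) encodes PPARα, the fatty acid-sensing receptor that switches on much of this pathway. It measured 5.26, 28.2, 27.5, 20.4, 24.4, 21.0, 24.99, 20.03 and 16.01 CPM in AL1 to AL9. LS1 to LS4 had 57.1, 62.9, 56.9 and 44.1 CPM, and Ctrl mice ranged from 31.3 to 66.2 (median 47.7) CPM. All 9 AL mice lay below all 11 controls, with AL1 far below the others and with a narrow gap between AL2 (28.2 CPM) and Ctrl7 (31.3 CPM), which belong to different runs. The log2FC of Ppara was -1.23 (SE 0.225, FDR = 0.000937) against Ctrl, or 0.428 times the Ctrl level, and -1.30 (SE 0.259, FDR = 0.00196) against LS. Within the first run it was -1.35 (FDR = 0.0056), and within the second -0.85 (FDR = 0.201). Ppara stayed lower against Ctrl in every setting but the second run alone, and in all 20 fits that left out 1 mouse each. Against LS it did not pass with the cardiomyocyte markers as a covariate or without the 5 control mice named above.

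Ppargc1a (ENSMUSG00000029167, chromosome 5, 51454250 to 51567726) encodes PGC-1α, the coactivator of mitochondrial genes. It measured 56.2 to 145 (median 102) CPM in AL, 198, 243, 196 and 151 CPM in LS1 to LS4 and 106 to 180.3 (median 133) CPM in Ctrl mice. All LS mice lay above every AL mouse, and Ctrl mice overlapped with both. The log2FC of Ppargc1a was -0.51 (SE 0.138, FDR = 0.0119) against Ctrl and -0.93 (SE 0.156, FDR = 0.000709) against LS, and the latter passed in each of the 15 other settings. The call against Ctrl was lost in 6 of 16, among them the first run alone (log2FC -0.39, FDR = 0.079). Ppargc1b, the related coactivator, had -0.43 (SE 0.174, FDR = 0.0751) against Ctrl and did not pass, and Esrra, the ERRα gene through which PGC-1α is known to act, had 0.00 (SE 0.0803, FDR = 0.999).

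**Figure D3:**
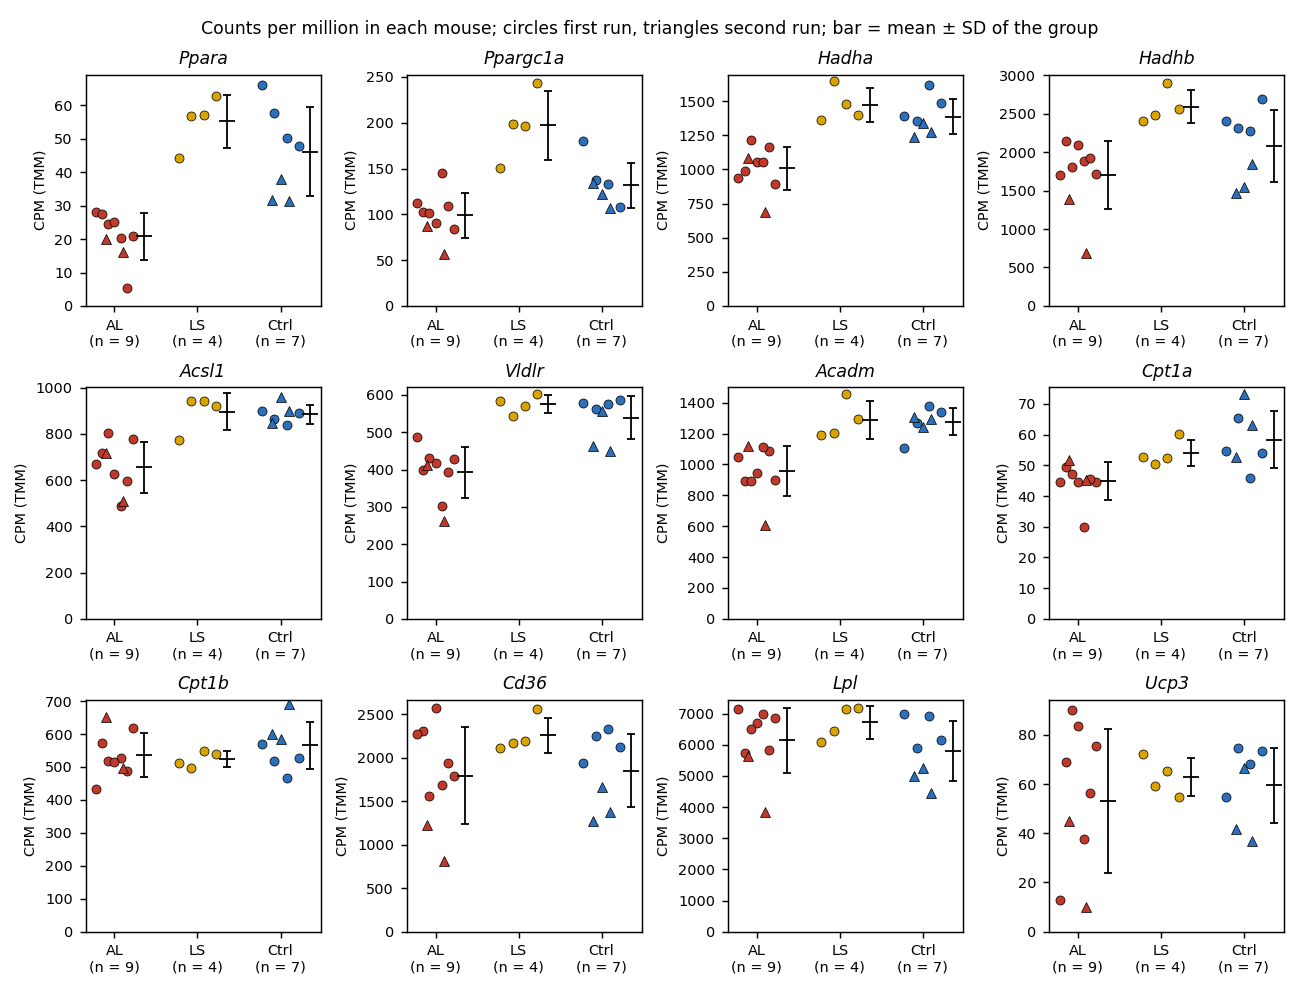
TMM-normalized CPM (y axis, from 0) of 12 of the genes in each mouse of the AL, LS and Ctrl groups (x axis), with circles for the first and triangles for the second run and the group mean ± SD beside them. The AL points of Ppara, Hadha and Acsl1 lie below all Ctrl points, while those of Cpt1b, Lpl, Cd36 and Ucp3 lie among them.

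Levels between genes were compared in Ctrl mice per kilobase of summed exon. This length joins all annotated exons of a gene, so it can exceed that of the transcript in use. Fabp3 was by far the highest at 3436 CPM per kb, followed by Lpl (554), Acaa2 (526.4), Cd36 (515) and Acadl (436). The lowest were Acsl3 (1.5005), Acot1 (1.93), Acsl4 (3.37) and Ppargc1b (3.64 CPM per kb). Among the 11 lower genes this level ran from 7.64 CPM per kb for Cpt1a to 326 for Acadm, so they were found among both scarce and abundant transcripts. Of the long-chain synthetases, Acsl1 stood at 84.5 CPM per kb, against 4.43 for Acsl5.

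The spread among AL mice was wide for some genes. The coefficient of variation over the 43 genes had a median of 12.7% in the 7 AL mice of the first run, 8.56% in the 4 LS mice and 8.99% in the 4 Ctrl mice of that run, a difference that was not tested. It was widest for Angptl4 (80.5%), Ucp3 (45.2%), Acot1 (40.96%), Plin5 (36.8%) and Ppara (36.1%) in AL mice. AL5 was the lowest of these 7 mice for 25 genes and AL7 the highest for 22. Relative to the Ctrl mean of its own run, the median log2 difference over the 43 genes was -0.47 in AL5, -0.46 in AL9 and -0.33 in AL3, but 0.00 in AL7 and 0.04 in AL8. Over the 11 lower genes alone, a group the comparison itself picked, it was negative in all 9 AL mice, from -0.90 in AL9 to -0.21 in AL2.

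**Figure D4:**
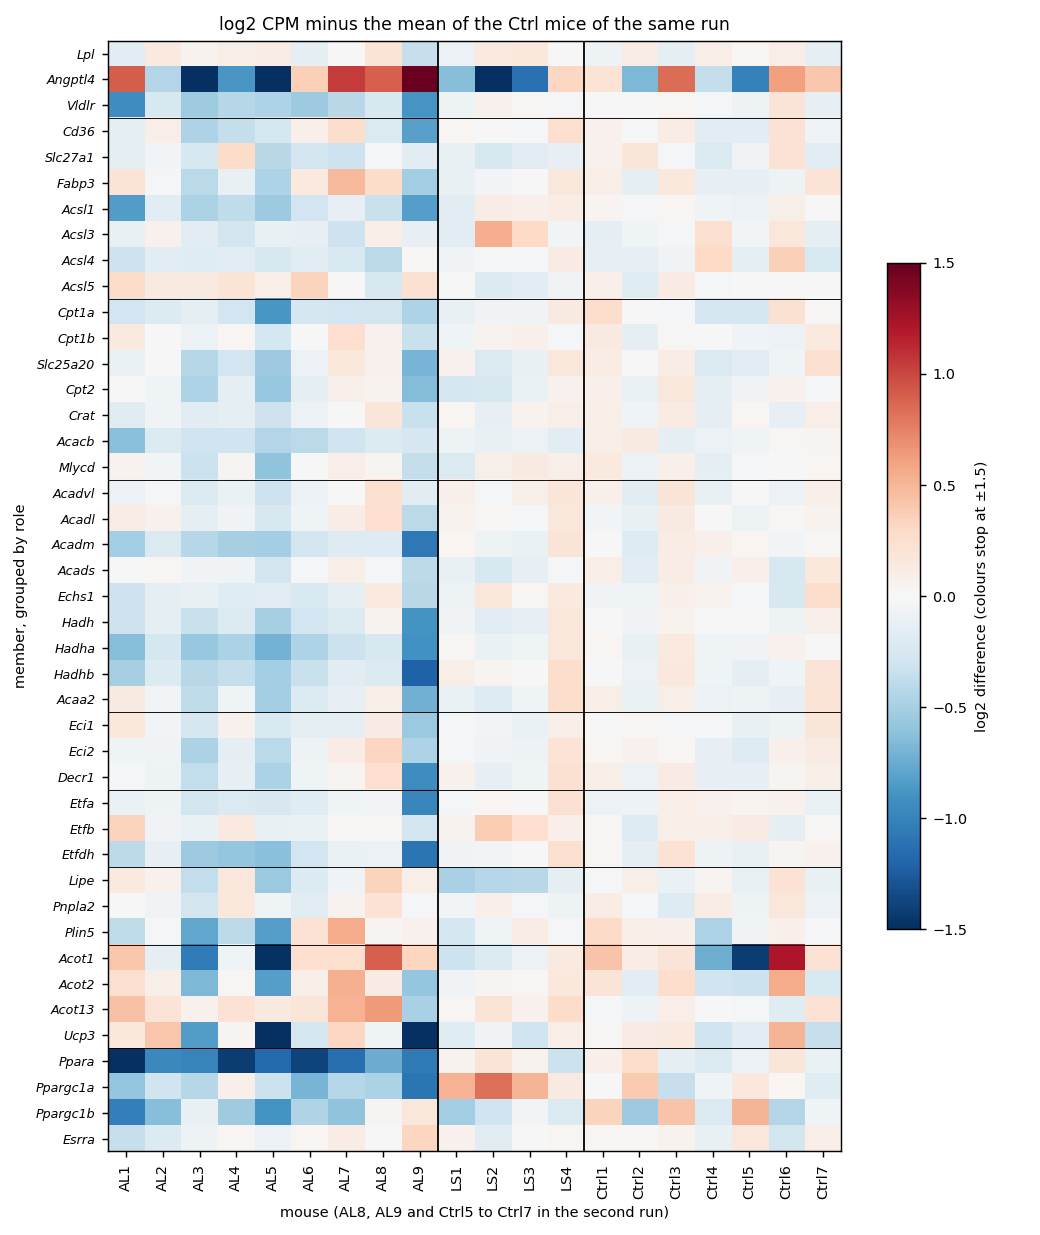
Log2 CPM of each of the 43 genes (rows, by role) in each of the 20 mice (columns) minus the mean of the Ctrl mice of the same run, in blue where lower and red where higher. Ppara is blue in all 9 AL columns, and the AL5 and AL9 columns are blue for most genes, with medians of -0.47 and -0.46.

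LS and Ctrl mice, neither with deposits, differ by the human light chain gene. It takes the place of the joining segments of the mouse κ gene, while Ctrl mice make mouse κ light chains. No gene passed the threshold between LS and Ctrl mice. By edgeR 0 of 43 were lower (0.0138% of all genes) and 0 higher (0.00691%, and 0.0207% in either direction), 0 passed by DESeq2, and 2 had an unadjusted p under 0.05 (5.94% of all genes). These were Ppargc1a, with a log2FC of 0.42 (SE 0.177, FDR = 0.808) in LS against Ctrl, and Lipe, with -0.31 (SE 0.136, FDR = 0.817). The log2FC was below 0 for 23 of the 43 (49.9% of all genes), with a median of -0.01, and Lipe was the 1 gene with every LS mouse below every Ctrl mouse (1.28% of all genes). With 4 LS mice, all of the first run, the SE of the log2FC ran from 0.0797 for Acacb to 0.633 for Angptl4. The median log2FC of the 43 genes in AL against Ctrl mice was -0.14. A difference of that size would be hard to detect here for any of the 43 genes, and most of all for the more variable ones.

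The AL difference was also set against the run. In a model of AL and Ctrl mice with an interaction of group and run, 0 of 43 genes passed (0.701% of 13835 genes) by edgeR or DESeq2 and 0 had an unadjusted p under 0.05 by edgeR (15.3% of genes). Without AL8, 6 of 43 passed (14% of genes), in a fit whose second-run AL arm is AL9 alone, the mouse that stood apart, which is assumed to vary like the others. AL8 and AL9 differed from each other: Hadhb was 1388 and 693 CPM, and Acadm 1118 and 608 CPM.

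The share of genes lower in AL mice rose with summed exon length, among the 43 genes as over all genes. All tested genes were divided by summed exon length into 4 classes of equal size. In the shortest class (up to 2.74 kb) the median log2FC of all genes against Ctrl was 0.13 and 7.78% were lower, and in the longest (6.79 kb and more) the median was -0.11 and 27.6% were lower. Of the 43 genes, 0 of 12 in the shortest class, 2 of 13 and 3 of 10 in the middle classes and 6 of 8 in the longest were lower. With an offset for exon length in each mouse, an alternative added after the data were seen, 13 genes were lower against Ctrl (13.3% of all genes). Cpt1a was lost, the other 10 kept, and Acaa2, Cpt2 and Etfa added. Against LS 10 were lower (12.7% of all genes), with Acacb and Etfdh lost and Acadvl, Etfa and Etfb added.

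**Figure D5:**
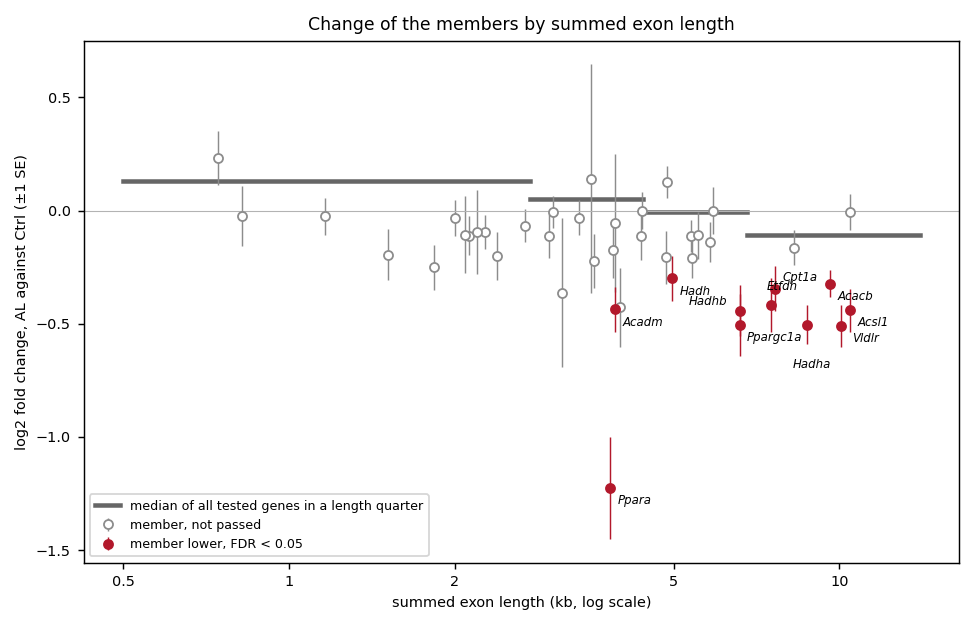
Log2 fold change in AL against Ctrl mice (y axis, ±1 SE) against summed exon length (x axis, kb, log scale) for the 43 genes, with the median of all tested genes in each length class as a bar (drawn from 0.5 to 14 kb). Filled points, lower at an FDR under 0.05, lie mostly to the right, and the bars step down from 0.13 to -0.11.

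In bulk tissue, fewer cells of a type and less RNA per cell cannot be told apart. The sum of 15 cardiomyocyte markers was 76976 to 115085 CPM in AL mice (median 89166), 97647 to 109329 CPM in LS (median 104129) and 92970 to 117132 CPM in Ctrl mice (median 103734). In the first run all 7 AL mice, at 76976 to 91067 CPM, lay below all 8 control mice, at 92970 to 109329 CPM. This sum is weighted by abundant genes, with Myh6 alone at 13748 to 42744 CPM. On the mean log2 level of the 15 markers Ctrl2 (12.04) lay within the range of these AL mice (11.88 in AL1 to 12.11 in AL5). The median log2FC of the 15 against Ctrl was -0.05. None of the 15 was at 0 in any mouse, and 3 of them (Atp2a2, Pln and Myh6) were lower against Ctrl and 5 against LS. With the mean of these markers as a covariate, 7 genes remained lower against Ctrl (9.83% of all genes) and 1, Ppargc1a, against LS (2.69%). All LS mice (12.18 in LS1 to 12.31 in LS2) lay above all first-run AL mice on this mean. In that run covariate and group thus cannot be told apart against LS, and the lost calls do not separate them. The sum of 18 hepatocyte markers was 5.08 to 72.5 CPM in AL, 11.1 to 243 CPM in LS and 3.94 to 372 CPM in Ctrl mice, and 17 of the 18 were lower against Ctrl. With these as a covariate 8 of the 11 genes remained lower against Ctrl (11.5% of all genes) and 7 of the 9 against LS (11.6%). Cpt1a, Hadh and Etfdh were lost against Ctrl, and Acacb and Etfdh against LS. The sum of 10 adipocyte markers was highest in AL1 (97.7 CPM), and 0.948 to 30.3 CPM in the other mice. Of the 8 tested, 0 passed against Ctrl and 1 was higher against LS. With these as a covariate 11 genes remained lower against Ctrl (16% of all genes) and 7 against LS (10.1%), where Acacb and Etfdh were lost. Of the 9 fibroblast markers 1 was higher against Ctrl, of the 10 endothelial markers 2 and of the 10 macrophage markers 2, and their part in the result was not tested.

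Related pathways were followed through lists of their own. Of 18 genes of peroxisomal fatty acid oxidation, which shortens very long and branched chains, 9 were lower and 1 higher against Ctrl, with a median log2FC of -0.29, and 7 were lower and 1 higher against LS. Ehhadh, a bifunctional enzyme of that route, had a log2FC of -0.61 (FDR = 0.00276) against Ctrl. The thiolase Acaa1a was the 1 gene higher, at 0.47 (FDR = 0.00274). Its paralog Acaa1b had -3.37 (FDR = 0.00175) at a mean of 1.19 CPM over all mice and 0.276 CPM in AL mice. They share 43.8% of the 31-base words of Acaa1a and 45.7% of those of Acaa1b, so the split of reads between them is uncertain, and Acaa1b is known to be rich in liver. With ComBat-seq 1 of the 18 was lower against Ctrl (2.59% of all genes), and without the 5 control mice rich in hepatocyte markers 0 were (3.64% of all genes).

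Of 6 genes of ketone body use 1 was lower against Ctrl and 2 against LS, among them Acat1, the mitochondrial acetoacetyl-CoA thiolase, with -0.37 (FDR = 0.00775) against Ctrl. Of 14 genes of triglyceride synthesis and droplets 3 were lower in each comparison, with Gpam, the first acyltransferase of that route, at -0.52 (FDR = 0.0219) and Lpin1, a phosphatidate phosphatase, at -0.42 (FDR = 0.00828) against Ctrl. Fatty acid synthesis and desaturation had 1 lower and 1 higher of 13 against Ctrl: Scd4, a stearoyl-CoA desaturase, at -2.09 (FDR = 0.000791), and Elovl1, an elongase, at 0.50 (FDR = 0.00274). Among 19 tested of 20 other acyl-CoA dehydrogenases, thioesterases and genes of carnitine supply, 8 were lower and 1 higher against Ctrl, with Acad11, a dehydrogenase of long chains, at -0.67 (FDR = 0.000452). Of 18 tested among 19 further regulators and PPAR targets 5 were lower and 1 higher against Ctrl, among them the ERRγ gene Esrrg at -0.56 (FDR = 0.00219) and the nuclear receptor coactivators Ncoa1 at -0.40 (FDR = 0.000442) and Ncoa2 at -0.49 (FDR = 0.000255). Against Ctrl all these counts stand beside 15.4% of all genes lower and 10.7% higher, and against LS beside 13.6% and 9.78%. With ComBat-seq, 2.59% of all genes were lower against Ctrl. In that setting 0 genes of the ketone, triglyceride and regulator lists were, 1 of the synthesis and desaturation list and 1 of the other acyl-CoA genes. Without the 5 control mice rich in hepatocyte markers, 3.64% of all genes were lower against Ctrl. These counts were then 0 for the ketone and triglyceride lists, 1 for synthesis and desaturation, 3 for the other acyl-CoA genes and 2 for the regulators. Acot5 and Fgf21 did not pass the filter on low counts and were not tested.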

How the data were processed

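Bulk RNA-seq of the heart apex (polyA-selected, stranded libraries, paired reads) was used from 20 mice, with 9 AL, 4 LS and 7 Ctrl mice grouped by the labels. The authors ran nf-core/rnaseq with STAR and Salmon on GRCm38, and deposited estimated counts per gene, not adjusted for the run, which were rounded to whole numbers here (14.2% of values were not whole). Genes were kept by filterByExpr with a minimum count of 10 (14477 of 25308). Counts were TMM-scaled and fitted by edgeR 4.0.16 (quasi-likelihood, in R 4.3.3) with group and run as terms over all mice. A prior count of 2 entered the log2 CPM behind the covariates and the exon-length offset, and not the fold changes of the main fit. The FDR was adjusted over all tested genes, with a threshold of 0.05. The dependence on the run was the interaction of group and run over AL and Ctrl mice.

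The 43 genes, the other gene and marker lists and the tests were chosen with earlier results of these data known, and the lists were written by hand. Values by mouse were given for 10 genes of central roles (Cpt1a, Cpt1b, Cd36, Lpl, Acsl1, Hadha, Acadm, Ppara, Ppargc1a and Ucp3) and for those with the 10 lowest FDR against Ctrl and the 5 lowest against LS. Other members are given by values chosen after they were seen, or by range. From other lists up to 3 genes of largest change past the threshold with a mean of at least 1 CPM were named. Alternatives were ComBat-seq (sva 3.50.0), no run term, each run alone, other filters, RLE size factors, DESeq2 1.42.0, only the groups compared, a block for the replicate number, covariates, mice left out and an exon-length offset. Same-numbered mice deviated together in 5 of 15 pairs (correlation over 0.1). Differently numbered mice were not compared, so this does not settle whether the numbers pair the mice. The main fit treated the mice as unpaired. The main fit of AL against Ctrl was also run on simulated counts with known changes. There all genes had the same dispersion (spread beyond counting error) and no mouse stood apart. This does not test the fit for genes of wide spread or for a mouse such as AL9. Exon lengths, the union of all annotated exons of a gene, came from GENCODE M21 and promoter windows from RefSeq GRCm38.p6.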

Additional observations from a re-analysis of the deposited data

Results flagged for a closer look

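In 14 of 129 combinations of gene and group, 1 mouse lay far from the others by Dixon's test, where chance at 1 in 20 would give 6.45. AL9, the mouse with the lowest mitochondrial share, had 4 of them, all low: Lpl at 3839.8 CPM (next mouse 5636), Acadm at 608 CPM (next 893), Etfa at 285 CPM (next 463) and Acot13 at 83.9 CPM (next 183). AL8, the other AL mouse of the second run, had Acsl4 at 11.1 CPM (next 15.0) and Acsl5 at 16.6 CPM (next 22.9), both low, and Crat at 499.7 CPM (next 423), which was high. AL5 was low for Cpt1a at 29.8 CPM (next 44.6). LS4 was high for Cd36 at 2560.4 CPM (next 2189), Etfa at 656 CPM (next 569) and Etfdh at 868 CPM (next 735). LS1 was low for Acsl1 at 776 CPM (next 922) and Mlycd at 62.2 CPM (next 76.6). Among Ctrl mice, Ctrl2 was high for Ppargc1a at 180.3 CPM (next 138). Runs were not separated for this test, and the genes of 1 mouse are not independent.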

How the results depend on the processing

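No gene changed sign under any alternative while called. The number lower in AL than in Ctrl mice, 11 as reported, was 1 with ComBat-seq, 0 in the second run alone, 7 with cardiomyocyte markers as a covariate, 3 without Ctrl1, Ctrl3, Ctrl4, LS1 and LS3, and 1 with a log2FC of at least 0.58 in size, and 10 to 14 with 1 mouse left out. The number higher, 0, was 1 in the first run alone and with the cardiomyocyte covariate (Acot13 in each), and 0 to 1 with 1 mouse left out (1 without AL8 or AL9). The number lower in AL than in LS mice, 9, was 2 with ComBat-seq, 1 with the cardiomyocyte covariate, 1 without those 5 mice and 2 with the size rule, and 6 (without LS4) to 11 with 1 mouse left out. The number higher, 1, was 0 with ComBat-seq, no run term, the adipocyte or cardiomyocyte covariate, without those 5 mice or with the size rule, 2 with DESeq2 and the replicate block (Acsl5 and Lipe), and 0 to 2 with 1 mouse left out. Genes whose difference depended on the run numbered 0 to 6 with 1 mouse left out. With the replicate block, 8 were lower against Ctrl and 9 against LS. Whether the numbers pair the mice was not settled (correlations of same-numbered mice -0.31 to 0.31). LS against Ctrl gave 0 throughout. The causes were not tested, and neither was the part of the smaller number of mice where mice were left out. The second run holds 5 mice at lower depth, and the part of depth in its 0 calls was not tested.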
